A study of Mus musculus with 12 samples.

Results

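Scl KO against wild type is the comparison of the 3 libraries titled Scl knockout (KO) with the 3 titled wild type, which are 6 of the 12 libraries of the series. All genes were considered, and 15399 of the 49671 genes in the table had enough counts to be tested. The libraries are mouse total RNA, made into stranded mRNA libraries, and the labels give their source as pooled embryos at embryonic day 9.5. Neither label names a change of Lyl1, so the comparison shows the loss of Scl in libraries not labelled as changed in Lyl1. The other 6 libraries, 3 Lyl1 KO and 3 Lyl1 and Scl double KO, enter the common estimate of spread and serve below as a second comparison of Scl loss. The labels give no strain, allele, deleting enzyme, litter or number of embryos per pool. The p-values below therefore measure the spread between these samples, which may be technical in part. In bulk RNA of this kind, fewer cells of a type and less RNA per cell cannot be told apart.

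Scl, whose gene symbol is Tal1, encodes a basic helix-loop-helix transcription factor of blood cell precursors, red cells, megakaryocytes and mast cells. It pairs with E proteins such as Tcf3, binds the short DNA sequence called an E-box, and is joined through the bridging proteins Lmo2 and Ldb1 to a GATA factor that binds beside it. Corepressors of the Eto family, such as Cbfa2t3, attach to the same complex. Lyl1 is the closest relative of Scl and can occupy the same place in the complex. Red cells are known to carry glycophorins in their membrane and a skeleton of spectrins beneath it. Megakaryocytes are known to fill granules with adhesive proteins and growth factors for the platelets they shed.

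The 6 libraries held between 25693102 and 29112520 counts, and levels are given as CPM, counts scaled to the same library size with TMM factors (trimmed mean of M values). A count of 0 allows up to 3 counts, or 0.105 to 0.131 CPM. Such limits and all counting intervals below cover counting error only. Markers of the tissues of an embryo at this stage were nearly absent. The 12 heart muscle markers summed to at most 6.96 CPM in any of the 6 libraries, the 12 markers of somite and tail bud to at most 3.27 CPM, the 12 of visceral endoderm to at most 10.9 CPM and the 13 neural markers to at most 29.9 CPM. The 35 platelet surface receptors summed to 38219 to 55146 CPM, and the 24 macrophage and monocyte markers to 4254 to 8191 CPM. Klf1, which drives red cell maturation, had 6 counts in the 3 wild-type and 2 in the 3 Scl KO libraries. The label of an embryo thus goes against the markers, and the libraries are called here by their group names only. Wild type 3 also stood apart from replicates 1 and 2 of its group in Slfn14 and Cdh5, and Scl KO 3 did so in Slfn14. These values are given below, and both genes were chosen after their values were seen. Counts below are therefore also given for replicates 1 and 2 alone, which was added once the values were known.

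The targeted gene was low in each Scl KO library. Tal1 (ENSMUSG00000028717, chromosome 4, 115056426 to 115071755, GRCm38) was at 559, 643 and 513 CPM in wild type 1 to 3 and at 118, 117 and 93.4 CPM in Scl KO 1 to 3. The groups did not overlap, and 19.2% of the wild-type level remained. Tal1 fell by 2.38 ± 0.15 on the log2 scale (fitted change ± standard error (SE), edgeR's quasi-likelihood test, adjusted p = 3.45e-06). The table sums reads over a gene, so the exons behind the remaining Tal1 reads are not seen. Lyl1 (ENSMUSG00000034041) was at 203, 192 and 149 CPM in the wild-type libraries and 210, 198 and 118 CPM in Scl KO. These ranges overlapped, and the fitted log2 change was -0.04 ± 0.24 (edgeR adjusted p = 0.951).

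Few genes beside Tal1 were called. Of 173 other tested genes within 10 Mb of Tal1, 6 were called (3.47%), against 5.03% of all genes tested. All 6 were lower in Scl KO. Pdzk1ip1, the neighbour of Tal1 that encodes a small membrane protein, was at 286, 322 and 398 CPM in the wild-type libraries and 178, 167 and 134 CPM in Scl KO. It was lower in each Scl KO library than in each wild-type library, with a log2 change of -1.07 ± 0.16 (edgeR adjusted p = 0.00271). Stil, on the other side of Tal1, was at 4 to 9.59 CPM in the wild-type libraries and 4.25 to 7.42 CPM in Scl KO (log2 change -0.21 ± 0.41, edgeR adjusted p = 0.851). Cmpk1, next to Stil, had a log2 change of -0.18 ± 0.10 (edgeR adjusted p = 0.374). Pdzk1ip1 and Stil were chosen after their values were seen, as neighbours of Tal1, and so was Cmpk1. The other calls in the window were Prkaa2, Usp24, Urod and the pseudogenes Hspd1-ps4 and Cyp4b1-ps2, with log2 changes from -2.68 to -0.51. Urod, an enzyme of heme synthesis, was at 45.8, 47.8 and 47.9 CPM in the wild-type libraries and 29.4, 36.7 and 33.1 CPM in Scl KO (edgeR adjusted p = 0.0184). Its call was lost without wild type 1 (0.0556), wild type 2 (0.0738), Scl KO 1 (0.0945) or Scl KO 3 (0.0602).

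**Figure D1:**
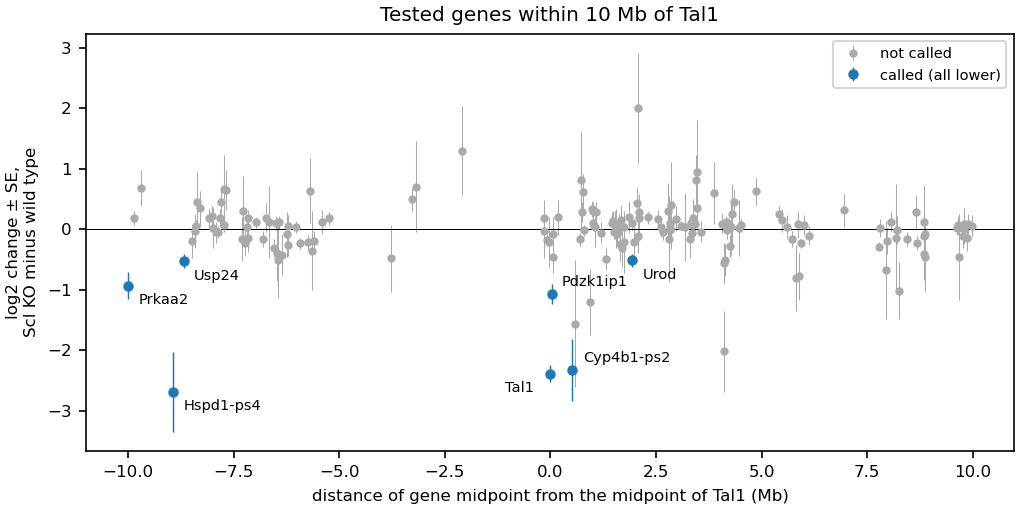
Fitted log2 change ± SE (Scl KO minus wild type, vertical axis) of the tested genes within 10 Mb of Tal1, by distance of each gene's midpoint from that of Tal1 in Mb (horizontal axis). Tal1 fell by 2.38, its neighbour Pdzk1ip1 fell by 1.07, and 6 of the 173 other genes were called, all of them lower.

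Over the whole table, edgeR's quasi-likelihood test called 774 of 15399 genes (5.03%) at a Benjamini-Hochberg adjusted p under 0.05. Of these, 353 rose (2.29% of genes tested) and 421 fell (2.73%). Changes of more than 2-fold made up 372 calls (2.42%), 169 up and 203 down, and 19 rises and 30 falls were larger than 8-fold. All 774 had no overlap between the 3 Scl KO and 3 wild-type values, which held for 22.4% of all genes tested. An unadjusted p under 0.05 was reached by 2767 genes. The median called rise was 0.95 and the median called fall -0.98 on the log2 scale, beside a median of 0.00 over all genes tested. Calls leaned to falls among abundant genes: of 1906 genes with a mean level of 100 to 1000 CPM, 67 rose and 127 fell, and of 119 genes above 1000 CPM, 1 rose and 6 fell. Between 10 and 100 CPM the calls were balanced, with 187 up and 186 down. The number of calls depended on each library. It was 435, 388 and 955 when wild type 1, 2 or 3 was left out, and 450, 420 and 512 when Scl KO 1, 2 or 3 was. With replicates 1 and 2 of both groups alone, 620 genes were called, 313 up and 307 down, and 503 of them were among the 774. Of the 86 called genes named by the rule, 16 lost their calls in that setting (adjusted p = 0.0517 to 0.208), among them Aldh1a1, Cdkn2a, Dll1, Efnb2, Hdc, Kdr, Lgalsl, Mx2, Phlda3, Pkm, Prg2, Prkcq, Rab27b, Urod and Vav1.

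**Figure D2:**
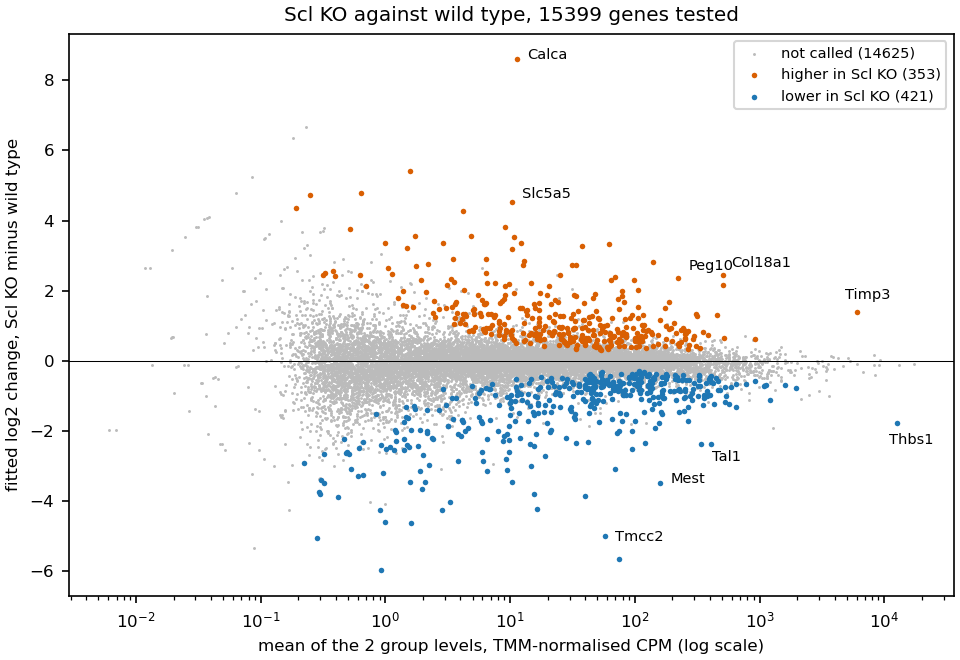
Fitted log2 change (Scl KO minus wild type, vertical axis) against the mean of both group levels in CPM (horizontal axis, log scale) for the 15399 genes tested. Orange points are the 353 genes that rose and blue points the 421 that fell; Calca has the largest rise (8.60), and Thbs1 and Timp3 are the most abundant genes that changed.

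A few partners and cofactors of Scl were called, some higher and some lower. Of 30 tested genes of the Scl complex and its cofactors, 2 rose, 2 fell and 26 were not called, against 2.29% up and 2.73% down over all genes tested, and their median log2 change was 0.05. Cbfa2t3 (ENSMUSG00000006362, chromosome 8, 122625141 to 122699109), the Eto-family corepressor, was at 169, 167 and 151 CPM in the wild-type libraries and 30.9, 25.3 and 29.7 CPM in Scl KO. The groups were far apart and each was tight, and Cbfa2t3 fell by 2.50 ± 0.21 (edgeR adjusted p = 4.93e-05). Gata2, the GATA factor of progenitors and mast cells, was at 85.2, 80.4 and 74.2 CPM in the wild-type libraries and 30.5, 24.8 and 15.8 CPM in Scl KO. All Scl KO values lay below the wild-type ones, with Scl KO 3 the lowest (log2 change -1.75 ± 0.26, edgeR adjusted p = 0.00271). Lmo2, the bridging protein, went the other way, with 170, 184 and 212 CPM in the wild-type libraries and 336, 334 and 360 CPM in Scl KO. Lmo2 rose by 0.86 ± 0.11 (edgeR adjusted p = 0.00118). Ssbp2, which binds Ldb1 and stabilises it, was at 24.4, 29.2 and 33.3 CPM in the wild-type libraries and 45.2, 42.8 and 45.4 CPM in Scl KO. It rose by 0.62 ± 0.11 (edgeR adjusted p = 0.00861; 0.0517 without wild type 2).

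The other core members were not called. Gata1, the GATA factor of red cells and megakaryocytes, was at 585, 609 and 517 CPM in the wild-type libraries and 461, 441 and 311 CPM in Scl KO. These values did not overlap, yet the log2 change of -0.50 ± 0.25 did not pass (edgeR adjusted p = 0.33). Ldb1 and Tcf3 had log2 changes of 0.21 ± 0.12 and 0.07 ± 0.09 (edgeR adjusted p = 0.418 and 0.769). Zfpm1, the cofactor of Gata1 also called Fog1, and Gfi1b, a repressor of red cell and platelet formation genes, had changes of 0.08 ± 0.14 and -0.05 ± 0.23. Runx1 and Fli1, factors of blood stem cells and megakaryocytes, had changes of 0.05 ± 0.13 and -0.19 ± 0.17, and Nfe2, the platelet formation factor, had a change of -0.29 ± 0.27. Scl KO 3 held the lowest Gata1, Fli1, Gfi1b and Nfe2 values of the 6 libraries.

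Among stem and progenitor genes, 1 of 27 tested rose and 2 fell, against 2.29% up and 2.73% down over all genes tested. Their median log2 change was -0.45. Hhex (ENSMUSG00000024986), a homeobox protein of early blood and vessel cells, was at 45.3, 51.8 and 42.1 CPM in the wild-type libraries and 10.1, 9.85 and 10.2 CPM in Scl KO. The 3 Scl KO values lay close together, and Hhex fell by 2.21 ± 0.20 (edgeR adjusted p = 8.1e-05). Cd34, a surface sialomucin of progenitors and vessels, was at 88.4, 123 and 148 CPM in the wild-type libraries and 235, 203 and 271 CPM in Scl KO. It rose by 0.98 ± 0.21 (edgeR adjusted p = 0.0176), a call lost without wild type 1 (0.0691), wild type 2 (0.0827), Scl KO 1 (0.0534) or Scl KO 3 (0.0691). Kit, the stem cell factor receptor, was at 8.45, 6.41 and 4.08 CPM in the wild-type libraries and 4.87, 4.1 and 3.67 CPM in Scl KO, and the groups overlapped (edgeR adjusted p = 0.491).

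All called genes of the red cell surface and membrane skeleton were falls. Of 30 listed genes, 24 were tested, 7 fell, none rose and 17 were not called, against 2.73% down and 2.29% up over all genes tested. The median log2 change of those tested was -0.63, beside 0.00 over all genes. The list, with Tmcc2 in it, was chosen with earlier results of these data known. Tmcc2 (ENSMUSG00000042066, chromosome 1, 132356315 to 132391281), a transmembrane and coiled-coil protein, was at 117, 124 and 94.3 CPM in the wild-type libraries and 3.67, 3.21 and 3.53 CPM in Scl KO. Only 3.11% of its wild-type level remained, and it had the smallest adjusted p of the named genes (log2 change -5.01 ± 0.17, edgeR adjusted p = 2.93e-08). Ackr1, the Duffy chemokine receptor, was at 26.6, 26.9 and 25.5 CPM in the wild-type libraries and 3.67, 3.53 and 2.73 CPM in Scl KO (log2 change -2.99 ± 0.45, edgeR adjusted p = 0.00271). Gypc, glycophorin C, which cells beside red cells also express, fell least of those named. It went from 199 ± 22.5 to 85 ± 7.35 CPM (mean ± standard deviation (SD), n = 3 per group, as for such values below), a log2 change of -1.23 ± 0.19 (edgeR adjusted p = 0.00294).

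Other calls of the list were of low level. Epb42, the membrane protein 4.2 of red cells, had 55, 60 and 64 counts in wild type and 10, 17 and 7 in Scl KO (log2 change -2.53 ± 0.50, edgeR adjusted p = 0.0122). Tmod1, a tropomodulin that caps actin filaments in the membrane skeleton, had 69, 62 and 54 counts against 18, 25 and 37 (-1.38 ± 0.32, edgeR adjusted p = 0.0297). Several partners of these proteins were not called. Sptb, a beta spectrin, had a log2 change of -0.10 ± 0.17 (422 and 395 CPM on average). Ank1, which anchors spectrin, had a change of -0.84 ± 0.54 at less than 1 CPM, and Epb41, the protein 4.1 that many cells express, a change of -0.60 ± 0.16 (edgeR adjusted p = 0.0563). Slc4a1, the red cell anion exchanger, had 2 counts in the wild-type libraries together and 0 in Scl KO, and Rhag had 1 and 0. With these at or under the floor, no fold is given. Epor, the erythropoietin receptor, was at 142, 149 and 126 CPM in the wild-type libraries and 129, 117 and 77.4 CPM in Scl KO, and its ranges overlapped (edgeR adjusted p = 0.529).

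Both calls among the 8 globin genes tested were falls of adult alpha globins, against 2.29% up and 2.73% down over all genes tested. Hba-a1, an adult alpha globin, was at 242, 205 and 152 CPM in the wild-type libraries and 55.9, 39.8 and 22.3 CPM in Scl KO (log2 change -2.35 ± 0.34, edgeR adjusted p = 0.00193). Its near-identical copy Hba-a2 had 265, 242 and 286 counts against 64, 42 and 14 (-2.85 ± 0.51, edgeR adjusted p = 0.00671), and the split of reads between the copies is uncertain. No beta globin was called. Hbb-bt, an adult beta globin, had 5612, 5466 and 5902 counts in wild type and 11829, 2369 and 6947 in Scl KO, a spread that ran from below to above the wild-type values (log2 change 0.19 ± 0.68, edgeR adjusted p = 0.925). Hbb-bs, its near-identical partner, had 302, 271 and 338 counts against 1789, 1271 and 1028 (2.03 ± 0.60, edgeR adjusted p = 0.0807). Hbb-y, the embryonic epsilon globin, had 868, 825 and 1660 counts against 3349, 974 and 2202, and the groups overlapped (0.86 ± 0.60, edgeR adjusted p = 0.509). Hba-x, the embryonic zeta globin, had 2 counts in wild type and 1 in Scl KO. Among 23 heme and iron genes, Urod fell as given above and Alad, an earlier enzyme of the same pathway, rose by 0.85 ± 0.20 (4.44 ± 1.21 to 8 ± 1.46 CPM, edgeR adjusted p = 0.0317). The Alad call was lost without wild type 1 (0.119), wild type 2 (0.156), Scl KO 2 (0.0778) or Scl KO 3 (0.119). Alas2, the red cell enzyme of the first step, had 5 counts in wild type and 1 in Scl KO.

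Most genes of the platelet surface did not pass the test. Of 35 tested receptors, 1 rose, 3 fell and 31 were not called (5.03% of all genes were called), with a median log2 change of -0.21. Their summed level was 50246, 55146 and 48649 CPM in the wild-type libraries and 50628, 49217 and 38219 CPM in Scl KO, and the groups overlapped. Itga2b, the alpha chain of the platelet fibrinogen receptor, had a log2 change of -0.32 ± 0.18 (edgeR adjusted p = 0.408). Its partner chain Itgb3 was at 13326, 14808 and 13103 CPM in the wild-type libraries and 13868, 13823 and 10540 CPM in Scl KO (-0.11 ± 0.20, edgeR adjusted p = 0.843). Gp1ba, part of the von Willebrand factor receptor, had a change of -0.04 ± 0.26. The intervals these errors give do not show that the levels were alike. Adra2a (ENSMUSG00000033717, chromosome 19, 54045182 to 54048982), the adrenergic receptor through which adrenaline acts on platelets, had the largest fitted change of the list. It was at 29.6, 29.2 and 28.9 CPM in the wild-type libraries and 1.9, 2 and 2.45 CPM in Scl KO. Both groups were tight, 7.23% of the wild-type level remained, and Adra2a fell by 3.79 ± 0.26 (edgeR adjusted p = 8.18e-06). Pecam1, an adhesion molecule of platelets and vessels, was at 781, 796 and 625 CPM in the wild-type libraries and 386, 338 and 254 CPM in Scl KO (log2 change -1.17 ± 0.20, edgeR adjusted p = 0.00493). F11r, the junctional adhesion molecule A, fell by 0.87 ± 0.13 (295 ± 28.9 to 162 ± 14.1 CPM, edgeR adjusted p = 0.00292). Ptger3, the prostaglandin E2 receptor that favours platelet activation, was at 54.2, 78.1 and 102 CPM in the wild-type libraries and 150, 149 and 175 CPM in Scl KO. Each Scl KO value was above each wild-type value, and Ptger3 rose by 1.01 ± 0.18 (edgeR adjusted p = 0.00701).

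Granule cargo held the largest fall in level of all genes, that of Thbs1. Of 28 tested cargo genes, 2 rose, 4 fell and 22 were not called (2.29% of all genes rose and 2.73% fell), with a median log2 change of -0.21. Thbs1 (ENSMUSG00000040152, chromosome 2, 118111876 to 118127133), the thrombospondin of alpha granules, was at 19623, 21389 and 18232 CPM in the wild-type libraries and 7454, 5655 and 4251 CPM in Scl KO. It had the most counts of any gene in each wild-type library, and 29.3% of that level remained (log2 change -1.77 ± 0.20, edgeR adjusted p = 0.000412). Timp3 (ENSMUSG00000020044, chromosome 10, 86300372 to 86349506), an inhibitor of matrix metalloproteinases, went the other way. It was at 2662, 3500 and 3854 CPM in the wild-type libraries and 9262, 9421 and 7767 CPM in Scl KO, a rise of 1.40 ± 0.18 (edgeR adjusted p = 0.000995). The 3 growth factors called in this list all fell. Pdgfb and Pdgfa, both chains of platelet-derived growth factor, were at 115 ± 9.63 and 50 ± 11.9 CPM in the wild-type libraries and 27.7 ± 6.57 and 15.8 ± 1.23 CPM in Scl KO. Pdgfb fell by 2.06 ± 0.17 and Pdgfa fell by 1.66 ± 0.24 (edgeR adjusted p = 4.2e-05 and 0.0019). Vegfc, the lymphatic vessel growth factor, was at 15.8, 27.1 and 21.5 CPM in the wild-type libraries and 8.32, 6.81 and 4.3 CPM in Scl KO, a fall of 1.73 ± 0.25 (edgeR adjusted p = 0.00193). Serpine2, protease nexin 1, which inhibits thrombin, rose by 0.62 ± 0.12 (624, 738 and 822 CPM to 1078, 1105 and 1163 CPM, edgeR adjusted p = 0.0112). The call was lost without wild type 1 (0.0519) or wild type 2 (0.0588). Other main cargo was not called: Ppbp and Pf4, platelet chemokines, had log2 changes of -0.09 ± 0.33 and -0.23 ± 0.15, and Vwf, the von Willebrand factor, had a change of -0.08 ± 0.27.

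In the lists of granule formation, cytoskeleton and signalling, 6 of 92 tested genes were called (6.52%), against 5.03% of all genes tested. All 6 were falls, and over all genes tested 2.73% fell and 2.29% rose. Rab27b, a small GTPase of granule transport, was the 1 call among 27 tested genes of granule formation, with 2204, 2953 and 2311 CPM in the wild-type libraries and 1424, 1518 and 1417 CPM in Scl KO. It fell by 0.78 ± 0.16 (edgeR adjusted p = 0.0144), a call lost without wild type 2 (0.0673), Scl KO 1 (0.0602) or Scl KO 2 (0.0519). Tubb2a, a beta tubulin, was the 1 call among 26 genes of the proplatelet cytoskeleton, with 454, 447 and 317 CPM in the wild-type libraries and 138, 125 and 109 CPM in Scl KO (log2 change -1.71 ± 0.28, edgeR adjusted p = 0.00454). Tubb1, the beta tubulin that platelets use for their marginal band, was at 2470, 2247 and 1369 CPM in the wild-type libraries and 691, 627 and 286 CPM in Scl KO. The groups did not overlap and the log2 change was -1.92 ± 0.58, but Tubb1 did not pass in the fit of 12 libraries (edgeR adjusted p = 0.0882). In the 6 libraries alone it was called (edgeR adjusted p = 0.0284), as it was by DESeq2's Wald test (adjusted p = 0.0329). Of 39 platelet signalling genes, 4 fell and none rose. Fyn and Lyn, Src-family kinases, fell by 0.84 ± 0.11 and 0.83 ± 0.17 (289 ± 27.2 to 161 ± 18 CPM and 598 ± 80 to 336 ± 58.7 CPM, edgeR adjusted p = 0.00122 and 0.0141), and the Lyn call was lost without wild type 1 (0.0526) or wild type 2 (0.0596). Prkcq, protein kinase C theta, and Vav1, a guanine nucleotide exchange factor, had adjusted p-values of 0.0355 and 0.0454. Neither call held when a library, whichever of the 6, was left out (0.054 to 0.125 and 0.0781 to 0.134). The summed signalling level was 34737 to 41518 CPM in the wild-type libraries and 25004 to 33873 CPM in Scl KO.

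The 15 largest rises and 15 largest falls among annotated genes with a mean of at least 1 CPM and no overlap between the groups were named by rule, and 12 of these falls are given. Mest (ENSMUSG00000051855, chromosome 6), an imprinted gene expressed from the paternal copy, was at 381, 297 and 198 CPM in the wild-type libraries and 30.7, 39.2 and 8.05 CPM in Scl KO. Scl KO 3 was the lowest of the 6 libraries, and Mest fell by 3.49 ± 0.55 (edgeR adjusted p = 0.0036). Sardh, a mitochondrial enzyme that oxidises sarcosine, was at 34.9, 37.6 and 20.6 CPM in the wild-type libraries and 2.4, 1.53 and 1.01 CPM in Scl KO (log2 change -4.24 ± 0.35, edgeR adjusted p = 4.2e-05). Txk, a Tec-family tyrosine kinase, was at 14, 14.2 and 7 CPM in the wild-type libraries and 1.62, 1.39 and 0.98 CPM in Scl KO. It fell by 3.13 ± 0.37 (edgeR adjusted p = 0.000502). The others given were those of Tmcc2 and Adra2a, described above, and of Sdcbp2, Prrt4, Tmem132b, Cntnap1, Sema6a, Gng4 and Jhy, with log2 changes from -4.63 to -3.11. Of these, Cntnap1 belongs to the axon and glia junction and Sema6a is a semaphorin, a family of guidance proteins. Apart from Jhy, their wild-type means were 2.88 to 6.18 CPM.

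The largest rise was that of Calca (ENSMUSG00000030669, chromosome 7, 114631478 to 114636357), which encodes calcitonin and the peptide CGRP. The wild-type libraries held 0.0416, 0.0436 and 0.0729 CPM of it, from 4 counts in all, and the Scl KO libraries 15.1, 14.4 and 38.4 CPM, from 1889 counts. Scl KO 3 was the highest of the 6 libraries. The ratio of the pooled counts was 426 (exact 95% binomial interval 166 to 1565, counting error only), and edgeR's fitted log2 change of 8.60 ± 0.83 (adjusted p = 0.000146) depends on its prior count. Calca was the 1 call among 10 tested genes of peptide hormones and their receptors, against 5.03% called over all genes tested. Clstn2, a calsyntenin of synapses, had 5 counts in wild type and 254 in Scl KO, a ratio of 45.8 (19.4 to 142; edgeR adjusted p = 0.0004). Slc5a5 (ENSMUSG00000000792, chromosome 8), the sodium iodide symporter, was at 0.791, 0.959 and 0.802 CPM in the wild-type libraries and 21.7, 22.2 and 15.3 CPM in Scl KO. It rose by 4.53 ± 0.33 (edgeR adjusted p = 1.82e-05). Npy2r, a neuropeptide Y receptor, was at 0.291, 0.305 and 0.62 CPM in the wild-type libraries and 9.86, 10.7 and 3.5 CPM in Scl KO (4.26 ± 0.64, edgeR adjusted p = 0.00271). Calca and Npy2r were not called by limma-voom (adjusted p = 0.0763 and 0.177).

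Rises of signalling genes included Ephb1, an ephrin receptor (0.766 ± 0.759 to 8.9 ± 0.701 CPM), Pak6, a p21-activated kinase (1.69 ± 0.41 to 19.7 ± 6.81 CPM), and Rasal1, which switches Ras off (2.14 ± 1.47 to 22.5 ± 11.7 CPM). Their log2 changes were 3.56 ± 0.59, 3.54 ± 0.39 and 3.37 ± 0.54 (edgeR adjusted p = 0.00454, 0.000375 and 0.00399). Sp7, the osteoblast factor osterix, went from 0.0416, 0.392 and 0.365 CPM to 2.71, 2.71 and 4.2 CPM (3.56 ± 0.45, edgeR adjusted p = 0.000837). Cxcl3, a chemokine that attracts neutrophils, was at 3.83, 5.84 and 11.4 CPM in the wild-type libraries and 66.8, 68.6 and 69.6 CPM in Scl KO. Its Scl KO values lay close together, and it rose by 3.27 ± 0.35 (edgeR adjusted p = 0.000284). Gpr171, a G protein-coupled receptor, was at 1.21, 1.61 and 1.71 CPM in the wild-type libraries and 11.9, 12.1 and 10.3 CPM in Scl KO, a rise of 2.91 ± 0.18 (edgeR adjusted p = 3.45e-06). P2ry14, a nucleotide sugar receptor whose gene lies beside Gpr171 on chromosome 3, was chosen after its values were seen and rose by 1.93 ± 0.19 (edgeR adjusted p = 0.000194). AI593442, Gipc3, Fbn2, Acot3 and Cdkn2a complete the 15, with rises of 3.18 to 3.81. Cdkn2a, which encodes the cell cycle inhibitors p16 and p19, had an adjusted p of 0.0309 and lost its call without Scl KO 1 (0.0665), Scl KO 3 (0.107) or any 1 wild-type library (0.0674 to 0.137). Acot3, an acyl-CoA thioesterase, lost its call without any 1 of the Scl KO libraries (0.0562 to 0.0927), wild type 1 (0.0645) or wild type 2 (0.135).

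**Figure D3:**
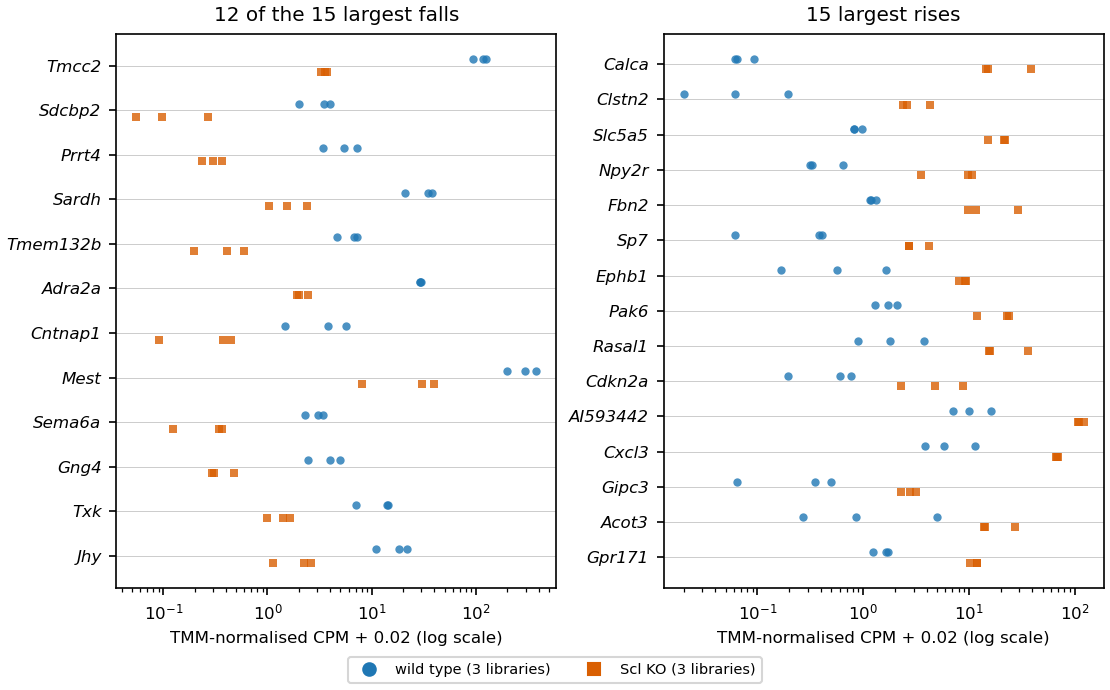
CPM + 0.02 (horizontal axes, log scale) in each of the 3 wild-type libraries (blue circles) and 3 Scl KO libraries (orange squares) for 12 of the 15 largest falls (left) and 15 largest rises (right) named by rule. Tmcc2 goes from above 90 to below 4 CPM, and Calca from below 0.1 to above 14 CPM; absence of overlap was part of the rule.

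By change in level rather than ratio, the largest rises after Timp3 were those of Col18a1 and Aldh1a1. Col18a1 (ENSMUSG00000001435, chromosome 10, 77052178 to 77166548), the basement membrane collagen that contains endostatin, was at 178, 144 and 158 CPM in the wild-type libraries and 879, 813 and 903 CPM in Scl KO. The groups were tight, and Col18a1 rose by 2.44 ± 0.13 (edgeR adjusted p = 1.39e-06). Aldh1a1, which makes retinoic acid, was at 123, 150 and 283 CPM in the wild-type libraries and 1036, 927 and 541 CPM in Scl KO. Replicate 3 lay nearest to the other group on both sides, and the call (2.17 ± 0.55, edgeR adjusted p = 0.045) held only when wild type 3 was the library left out (0.0518 to 0.183 for the others). Peg10, an imprinted gene derived from a retrotransposon, was at 57.7, 71.3 and 89.4 CPM in the wild-type libraries and 372, 385 and 359 CPM in Scl KO (2.35 ± 0.22, edgeR adjusted p = 0.000124). Vldlr, the very low density lipoprotein receptor, rose by 1.34 ± 0.21 (176 ± 53.6 to 446 ± 57.7 CPM, edgeR adjusted p = 0.00334), and Agtrap, a partner of the angiotensin receptor, by 1.27 ± 0.23 (184 ± 12.5 to 442 ± 112 CPM, edgeR adjusted p = 0.00676). Gbp4, a guanylate-binding protein, rose by 1.29 ± 0.29 (edgeR adjusted p = 0.0264), a call lost without wild type 1 (0.0663), wild type 2 (0.123), Scl KO 2 (0.0614) or Scl KO 3 (0.0884).

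Among called genes, the largest falls in level after Thbs1 were those of Rab27b and Ubash3b. Ubash3b, a tyrosine phosphatase that restrains platelet signalling, was at 1779, 1851 and 1344 CPM in the wild-type libraries and 900, 867 and 531 CPM in Scl KO (log2 change -1.11 ± 0.23, edgeR adjusted p = 0.0144; 0.0508 without wild type 1 and 0.0588 without wild type 2). Pkm, the pyruvate kinase of glycolysis, fell by 0.69 ± 0.13 (1989 ± 72.7 to 1235 ± 149 CPM, edgeR adjusted p = 0.0101), and Mapk6, an atypical kinase of the MAP kinase family, by 0.68 ± 0.11 (1389 ± 107 to 870 ± 86.1 CPM, edgeR adjusted p = 0.00512). Plxna4, a semaphorin receptor, fell by 1.33 ± 0.28 (edgeR adjusted p = 0.0169; 0.0556 without wild type 1 and 0.0605 without wild type 2). Lgalsl, a galectin-like protein, fell by 0.72 ± 0.16 (edgeR adjusted p = 0.0261), a call lost without any 1 library other than wild type 3 (0.0657 to 0.107).

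Of 29 extracellular matrix genes tested, 3 rose and none fell, against 2.29% up and 2.73% down over all genes, although the median change of the list was -0.39. Fbn2, a fibrillin of microfibrils, was at 1.17, 1.13 and 1.31 CPM in the wild-type libraries and 9.86, 11.8 and 29.4 CPM in Scl KO, with Scl KO 3 the highest (3.81 ± 0.45, edgeR adjusted p = 0.000504). Col4a5, a basement membrane collagen chain, was at 20.6, 29.6 and 52.2 CPM in the wild-type libraries and 125, 121 and 124 CPM in Scl KO (1.85 ± 0.25, edgeR adjusted p = 0.00128). The third was Col18a1. Endothelial genes had a median log2 change of -0.75, with 1 of 28 called up and 1 called down. Kdr, the main receptor for vascular endothelial growth factor, was at 55.8, 74.8 and 69.8 CPM in the wild-type libraries and 40.3, 41.7 and 37.6 CPM in Scl KO (edgeR adjusted p = 0.0163), a call lost without wild type 2 (0.0812), Scl KO 1 (0.0545), Scl KO 2 (0.0526) or Scl KO 3 (0.0538). Efnb2, an ephrin of arteries, had an adjusted p of 0.0261 and lost its call without any 1 library other than wild type 2 (0.0554 to 0.0967). Cdh5, the cadherin of vessel junctions, had 344, 451 and 40 counts in wild type and 98, 280 and 87 in Scl KO, so that wild type 3 lay below every Scl KO library.

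Il6ra, the alpha chain of the interleukin 6 receptor, fell by 1.10 ± 0.11 (86.6, 89.9 and 94.2 CPM to 45, 43.9 and 37.8 CPM, edgeR adjusted p = 0.000266). It was 1 of 2 calls, both falls, among 28 cytokine receptor and signalling genes. Over all genes tested, 2.29% rose and 2.73% fell. Of 23 interferon-induced genes, 2 fell, among them Mx2, and none rose, 21 had a negative change and the median was -0.66. Their sum was 508 to 658 CPM in the wild-type libraries and 420 to 441 CPM in Scl KO. Macrophage and monocyte markers, which other cells in the sample could supply, were negative in 23 of 23 tested genes (median -0.43) with none called, and summed to 4898 to 8191 CPM in the wild-type libraries and 4254 to 5926 CPM in Scl KO. The part of such cells in the interferon-induced genes was not tested. The Mx2 call (adjusted p = 0.0341) was lost without any 1 library other than wild type 1 (0.0518 to 0.128). Of 20 glycolysis genes, Pfkp, a phosphofructokinase, rose by 0.65 ± 0.12 (77.6 ± 6.6 to 122 ± 7.73 CPM, edgeR adjusted p = 0.00662), while Pkm and Pdk1 fell. Pdk1, which restrains entry into the citric acid cycle, kept its call only without wild type 3 (0.066 to 0.126 without any 1 of the others).

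Neutrophil markers had 0 calls among 18 tested, mast cell and basophil markers 1 among 9 (Hdc, down), eosinophil markers 1 among 9 (Prg2, down) and lymphoid markers 0 among 13. Over all genes tested, 5.03% were called, 2.29% up and 2.73% down, which also applies to the lists below. In edgeR's test, 2 neutrophil and 1 lymphoid marker had an unadjusted p under 0.05. Mast cell and basophil markers summed to 54.2, 36.5 and 163 CPM in the wild-type libraries and 32.4, 30.4 and 28.5 CPM in Scl KO, with wild type 3 far above the others. The Hdc and Prg2 calls had adjusted p-values of 0.0358 and 0.0496. Hdc lost its call without any 1 library other than wild type 1 (0.0549 to 0.128), and Prg2 without any 1 other than wild type 2 (0.0671 to 0.193). Of 36 cell cycle genes and 20 of cholesterol synthesis, edgeR called 0, with 2 in each list at an unadjusted p under 0.05. Of 19 immediate early genes, Jun and Jund rose (0.81 ± 0.20 and 0.76 ± 0.18), and of 18 genes of p53 and integrated stress, Phlda3 and Dnajb9 fell (-1.19 ± 0.31 and -0.49 ± 0.10). The Jun and Jund calls (edgeR adjusted p = 0.0416 and 0.0284) were lost without any 1 library other than wild type 3 (0.077 to 0.202 and 0.0567 to 0.14). Phlda3 (0.0499) was lost without any 1 library (0.0752 to 0.181), and Dnajb9 (0.0157) without wild type 2 (0.0905), Scl KO 1 (0.0824) or Scl KO 2 (0.0663). Dll1, a Notch ligand, was the 1 call among the few tested embryo markers (edgeR adjusted p = 0.0261), fell from 1.04 ± 0.43 to 0.18 ± 0.12 CPM, and was not called without wild type 2 (0.0979), wild type 3 (0.0593), Scl KO 1 (0.11) or Scl KO 3 (0.109). Summed levels of the 29 lists were compared by an exact permutation test (two-sided). With 3 against 3 libraries the smallest p it can give is 0.1, which 14 lists reached, and the smallest value adjusted over the lists was 0.207.

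**Figure D4:**
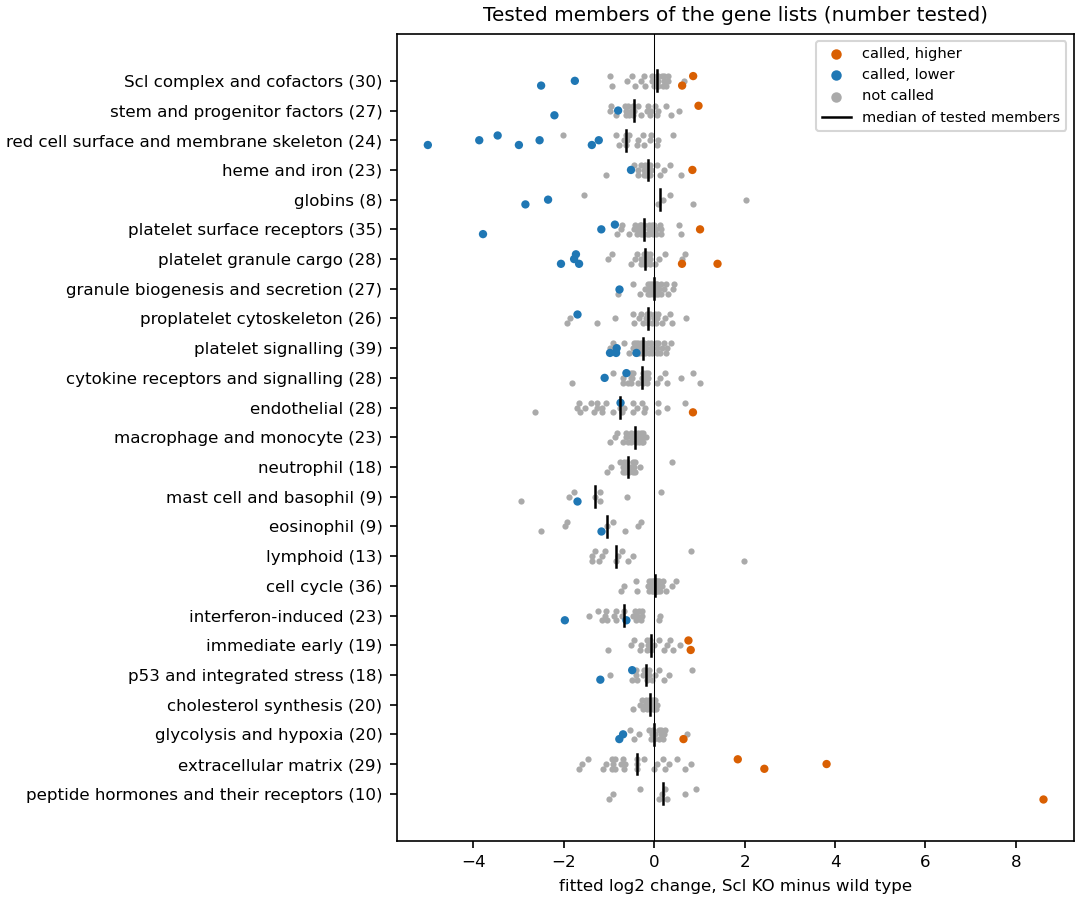
Fitted log2 change (Scl KO minus wild type, horizontal axis) of the tested members of the lists with at least 8 tested genes, with called members in orange (higher) or blue (lower), the rest in grey and the median as a black line. The red cell surface list holds 7 falls and no rise among 24 tested genes, and most members of each list shown are grey.

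Promoter sequences were searched for the motifs of the Scl complex, because its E-box and GATA parts are read together. The windows were RefSeq promoters on build GRCm38.p6, from 250 bases before to 50 after a start site. Of the 15399 genes tested, 10631 matched a window, and so did 306 of the 421 genes that fell and 268 of the 353 that rose. The composite motif was CTG, then 7, 8 or 9 bases of any kind, then GATAA, on either strand. It occurred in 10 of 420 windows of genes that fell (2.38%), in 4 of 352 windows of genes that rose (1.14%) and in 216 of 13515 windows of all genes (1.60%). Among falls of more than 2-fold, 10 of 185 windows held it (5.41%), and among rises of more than 2-fold, 3 of 155 (1.94%). The form with 9 bases between made up 7 of the 10, and occurred in 77 of the 216 windows over all genes. The form with 7 bases occurred in 0 of 420 windows of genes that fell and in 70 of 13515 windows of all genes. Of the separate motifs, CAGCTG occurred in 24.3% of windows of genes that fell, 14.8% of genes that rose and 15.4% of all. AGATAA occurred in 6.90%, 6.82% and 6.68%, CAGATG in 11.7%, 11.4% and 11.7%, and CAGGTG in 19.5%, 20.2% and 17.7%. CAGCTG reads the same on both strands, and AGATAA and the composite can share bases. These shares are descriptions with no test, and a match is not a binding site.

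The 10 genes that fell with a composite match were Ackr1, Epb42, Cbfa2t3, Mras, Slfn14, Nlrp6, Hemgn, Ubash3b, Il1bos and D7Ertd443e. The 4 that rose were Ppp2r3a, Cep97, Grb10 and Stox2. Shown here are the 250 bases before the start site for 5 of the genes that fell, chosen after their values were seen because they belong to red cells, platelets or the Scl complex. Each is on the minus strand and written 5′ to 3′ along the gene, and the capitals mark the composite match. They are Epb42 at chr2:121036878-121037127, Cbfa2t3 at chr8:122699110-122699359, Slfn14 at chr11:83286727-83286976, Hemgn at chr4:46404184-46404433 and Ubash3b at chr9:41079507-41079756.
Epb42: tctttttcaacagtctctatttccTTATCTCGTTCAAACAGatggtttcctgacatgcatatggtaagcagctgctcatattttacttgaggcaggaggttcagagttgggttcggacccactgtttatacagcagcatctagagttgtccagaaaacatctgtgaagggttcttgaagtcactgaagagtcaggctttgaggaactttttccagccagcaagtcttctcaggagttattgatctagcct
Cbfa2t3: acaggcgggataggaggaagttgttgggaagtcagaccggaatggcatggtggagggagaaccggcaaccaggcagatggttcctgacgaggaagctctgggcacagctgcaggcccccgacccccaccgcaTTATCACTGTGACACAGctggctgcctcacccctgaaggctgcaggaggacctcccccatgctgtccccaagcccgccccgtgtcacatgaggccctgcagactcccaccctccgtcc
Slfn14: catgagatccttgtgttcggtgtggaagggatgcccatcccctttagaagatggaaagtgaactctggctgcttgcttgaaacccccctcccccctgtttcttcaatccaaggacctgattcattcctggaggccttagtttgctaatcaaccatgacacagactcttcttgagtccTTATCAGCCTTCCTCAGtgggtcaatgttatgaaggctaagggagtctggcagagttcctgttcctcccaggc
Hemgn: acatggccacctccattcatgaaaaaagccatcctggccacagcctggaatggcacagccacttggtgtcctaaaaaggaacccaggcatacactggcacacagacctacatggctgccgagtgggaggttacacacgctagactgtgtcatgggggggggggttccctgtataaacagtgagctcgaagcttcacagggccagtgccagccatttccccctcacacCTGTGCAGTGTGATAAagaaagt
Ubash3b: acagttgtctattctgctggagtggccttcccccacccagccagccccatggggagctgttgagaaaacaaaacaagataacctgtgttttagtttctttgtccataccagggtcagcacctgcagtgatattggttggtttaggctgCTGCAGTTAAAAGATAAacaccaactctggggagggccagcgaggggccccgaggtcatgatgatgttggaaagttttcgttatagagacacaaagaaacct
The match of Ackr1 begins at base 26 after its start site and reads TTATCTTGGAGCCACAG, with the GATA part first because the motif lies on the opposite strand. In Epb42, Cbfa2t3 and Slfn14 the match is also on the strand opposite to the gene, while in Hemgn and Ubash3b it is on the strand of the gene. Hemgn, a nuclear protein of blood cells, was at 86.3, 105 and 106 CPM in the wild-type libraries and 30 to 32.5 CPM in Scl KO, and fell by 1.66 ± 0.30 (edgeR adjusted p = 0.00673). Slfn14, an endoribonuclease of red cell precursors and platelets, was at 292, 306 and 133 CPM in the wild-type libraries and 96.3, 89.6 and 27.6 CPM in Scl KO. Replicate 3 was the lowest of each group, and Slfn14 fell by 1.78 ± 0.45 (edgeR adjusted p = 0.0438).

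The double KO against Lyl1 KO shows the loss of Scl in libraries that share none with the comparison above. Part of the deviation of replicate 3 was nevertheless common to both comparisons, as given below. Lyl1 reads remained in both groups: Lyl1 was at 90.4, 87.4 and 85.5 CPM in the libraries labelled Lyl1 KO and 88.3, 108 and 56.5 CPM in those labelled double KO, 48.5% and 46.5% of the wild-type mean. Each value was below every wild-type and Scl KO value, but Lyl1 was not absent from the gene count, and which exons these reads come from is not seen. The words Lyl1 KO background below therefore follow the labels. The comparison called 5422 genes (35.2%), 2672 up (17.4%) and 2750 down (17.9%). Of the 774 genes called in Scl KO against wild type, 733 (94.7%) had the same sign there, against 67.8% of all genes tested, and 665 (85.9%) were also called with the same sign, against 29.1% of all genes tested. The 665 genes are 12.3% of the 5422. Rises were found again for 283 of 353 genes and falls for 382 of 421. The median change of the genes that rose was 1.17 there, and that of the genes that fell was -1.46. The opposite sign with a call occurred in 10 genes, and 99 were not called. Deviations from the group means correlated by 0.44 between double KO 3 and Scl KO 3, and by 0.24 between double KO 3 and wild type 3. For Lyl1 KO 3 the correlations with Scl KO 3 and wild type 3 were 0.13 and 0.08. The agreement in sign was therefore not measured in wholly unrelated libraries.

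Tmcc2 was at 157 CPM on average in Lyl1 KO and 1.1 CPM in the double KO (log2 change -7.15, edgeR adjusted p = 1.9e-09). Adra2a was at 37.4 and 3.89 CPM (-3.26). Calca had means of 0.147 CPM in Lyl1 KO and 235 CPM in the double KO (10.60, edgeR adjusted p = 1.2e-06), and Slc5a5 had 1.01 and 15.7 CPM (3.96). Cbfa2t3 fell by 2.49 in that comparison and Gata2 by 1.97 (edgeR adjusted p = 5.18e-06 and 0.000146), while Lmo2 rose by 1.41 (4.19e-06). These genes thus changed in the same direction in both pairs of groups. Thbs1 was at 20565 CPM in Lyl1 KO and 407 CPM in the double KO. Aldh1a1, Pdk1, Hdc, Prg2, Dll1 and Jun were called in Scl KO against wild type but not in the double KO against Lyl1 KO (edgeR adjusted p = 0.0961 to 0.726).

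Whether the effect of Scl loss differed between the backgrounds was tested with the interaction, the change from Lyl1 KO to double KO minus the change from wild type to Scl KO. It was called for 1444 of 15399 genes (9.38%) and for 243 of the 774 (31.4%). Of these 243, 201 changed more in the Lyl1 KO background, and 42 changed less or the other way. Because the same Scl KO and wild-type libraries chose the 774 and enter the interaction, these counts are not independent of the choice. The interaction was not called for Cbfa2t3 (edgeR adjusted p = 0.99), Gata2 (0.778), Ackr1 (0.656), Adra2a (0.369), Sardh (0.837), Slc5a5 (0.481) or Calca (0.653). A p that misses the threshold does not show that the effects were equal.

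**Figure D5:**
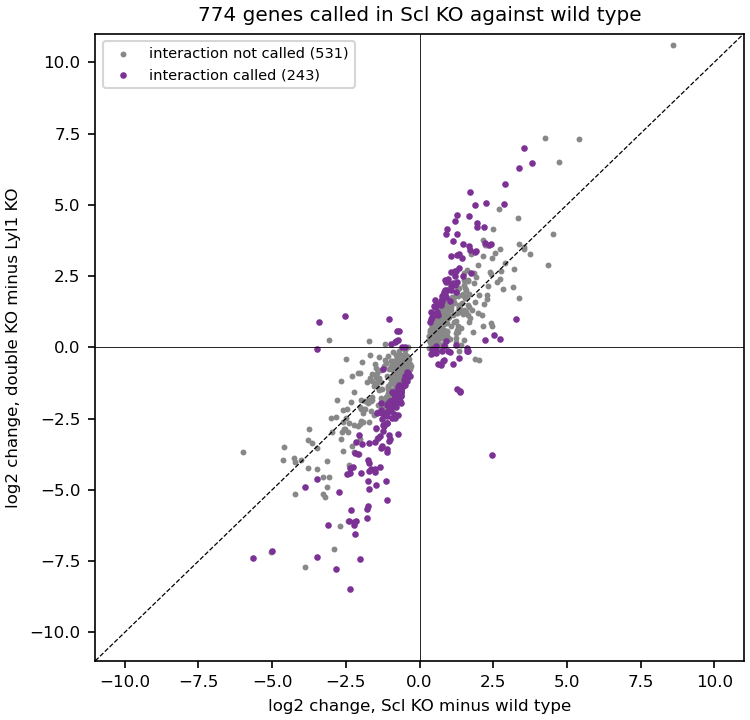
Fitted log2 change of Scl KO minus wild type (horizontal axis) against that of double KO minus Lyl1 KO (vertical axis) for the 774 called genes, with equal changes on the dashed line. The 243 genes with a called interaction are purple; 733 of the 774 genes have the same sign on both axes.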

How the data were processed

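RNA of 12 mouse libraries was sequenced, in 4 groups of 3 (wild type, Lyl1 KO, Scl KO and double KO), and 6 libraries form the main comparison. The authors deposited raw counts of reads for each gene, in a single table. Per the submitters' processing notes, STAR 2.5.2b aligned the reads to GRCm38, featureCounts of Subread 1.5.2 counted them, and limma was also used. Per the file headers, counting took the reverse strand and Ensembl release 87 gene models, and left out reads that map to several places, so that near-identical genes can lose reads or split them unevenly. Read length and trimming are not stated in those notes or headers.

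Ensembl identifiers gave a symbol for 49326 genes and none for 345. The analysis used R 4.3.3 and edgeR 4.0.16, with the tool's default expression filter (minimum count 10 per sample, 15 in total), TMM scaling and the robust quasi-likelihood test. All 12 libraries entered the fit, and group was its single term. A gene is called at a Benjamini-Hochberg adjusted p under 0.05. The SE is the log2 change divided by the square root of F. The common biological coefficient of variation was 0.234. On simulated data for this comparison (15155 genes, 50 changed per size), the test recovered 22% of genes changed 1.5-fold, 58% of those changed 2-fold, 84% of those changed 4-fold and 96% of those changed 8-fold, and 4 of 134 calls were false. The changed genes were drawn only from those above a minimum expected count and were changed in Scl KO alone. The simulated noise was independent between libraries, with no deviation shared by replicates. These rates therefore do not carry over to genes of low count or to the real calls. Alternatives were DESeq2 1.42.0 (size factors, Wald test), limma-voom (limma 3.58.1), other filters, the 6 libraries alone, the replicate number as a block, and each library left out.

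The rule for named genes took both targeted genes, the 15 largest fitted rises and falls and the 8 largest in mean CPM among called genes (without predicted genes, pseudogenes, overlap between the groups or a mean under 1 CPM), up to 5 called members per list, and 25 genes fixed by name; a few genes it took are not reported here. The 29 gene lists, which hold 653 genes matched in the table and 2 further names without a match, were read by counts and medians only. The comparison, lists and rule were chosen with earlier results of these data known. Promoter windows came from RefSeq (GRCm38.p6).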

Additional observations from a re-analysis of the deposited data

Results flagged for a closer look

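For 33 of the named genes reported here the effect of Scl loss differed between the wild-type and the Lyl1 KO background, by a test of the difference itself (the interaction term of edgeR's quasi-likelihood fit, adjusted p from 8.52e-05 to 0.0439). Values are the log2 change from Lyl1 KO to double KO minus that from wild type to Scl KO, and n = 3 per group. The libraries labelled Lyl1 KO and double KO held 48.5% and 46.5% of the wild-type level of Lyl1. The libraries of Scl KO and wild type also chose most of these genes, and no cause was tested.

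Among genes of red cells and their globins, Hba-a1 and Hba-a2 had differences of -6.12 and -4.94. In double KO 1 to 3, Hba-a1 had 16, 36 and 12 counts and Hba-a2 had 1, 7 and 0. The size of the Hba-a2 difference therefore depends on the prior count. The difference was -2.14 for Tmcc2, -2.16 for Epor and -0.64 for Urod. All of these red cell and globin genes fell further in the Lyl1 KO background, or, for Epor, were called there only. Platelet genes showed the same direction. The difference was -3.89 for Thbs1, -1.01 for Pdgfb, -1.62 for Vegfc, -0.94 for Pf4, -1.78 for Ppbp, -1.36 for Vwf and -3.03 for Tubb1. Of these, Pf4, Ppbp, Vwf and Tubb1 were not called in Scl KO against wild type, with log2 changes of -0.23, -0.09, -0.08 and -1.92, but were lower in the double KO than in Lyl1 KO, with changes of -1.17, -1.86, -1.44 and -4.95. The transcription factors Gata1, Fli1 and Nfe2 had differences of -1.47, -0.90 and -1.68.

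In signalling genes the difference was -0.92 for Fyn, -0.90 for Lyn, -0.55 for Vav1, -0.94 for Il6ra, -1.52 for Ubash3b, -1.79 for Plxna4 and -0.74 for Mapk6. Among other genes that fell it was -3.87 for Mest, -3.12 for Jhy, -2.32 for Lgalsl and -0.64 for Dnajb9. Genes that rose had larger rises in the Lyl1 KO background, by 2.65 for Fbn2, 3.42 for Sp7, 2.90 for Rasal1, 2.82 for Gpr171, 1.17 for Col18a1 and 1.23 for Peg10. Cxcl3 was the exception, with a difference of -2.27: its means were 7.03 (wild type), 68.3 (Scl KO), 12.5 (Lyl1 KO) and 25.2 CPM (double KO).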

How the results depend on the processing

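No gene called in Scl KO against wild type changed sign under any alternative run, and no named gene's called change reversed. With DESeq2's Wald test 1329 genes were called (606 up, 723 down), 89 list members and 2262 interactions. Replicates 1 and 2 were not paired by number, but replicate 3 of both groups shared a deviation. Same-numbered wild-type and Scl KO libraries correlated by 0.10, 0.14 and 0.36 in their deviations from the group means. Wild type 3 correlated with Scl KO 1 and 2 by -0.25 and -0.24, and Scl KO 3 with wild type 1 and 2 by -0.19 and -0.26. Not every library correlated best with its own number. Double KO 3 also shared in the deviation of replicate 3, correlating by 0.44 with Scl KO 3 and by 0.24 with wild type 3. The main fit has no term for this shared deviation. With the replicate number as a block, 1226 genes were called (698 down, 80 list members) in 12 libraries and 1568 (645 up, 923 down, 124 list members) in 6; 3 and 4 named calls were lost, and Tubb1 was called in both and Gata1 in the second. With 1 library left out, calls ranged from 388 to 955 (168 to 427 up, 220 to 528 down), those over 2-fold from 238 to 485, list members from 35 to 61 and interactions from 684 to 1665, beside 53 list members with all libraries. The lone pair of libraries in such a group is assumed to vary like the other groups. Within 5 Mb of Tal1, 3 of 88 other tested genes were called (3.41%), against 5.03% of all genes tested. Within 20 Mb, 10 of 348 were called (2.87%), 3 of them up and 7 down. GATAA alone occurred in 17.1% of windows of genes that fell. Of 86 named calls, 53 held in every setting run and 57 when any 1 library was left out. Depth limits calls at low levels: of 2593 genes under 1 CPM, 34 were called (1.31%).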
